A study of Mus musculus with 12 samples.

Results

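Emodin, a plant anthraquinone, was added to mouse macrophages during IL4 stimulation, and expression on the 4 arrays of IL4 with emodin was compared with that on the 4 arrays of IL4 alone. These 8 arrays were chosen by their sample titles from the 12 of the series; the other 4 are vehicle controls. The cells came from C57BL/6 mice labelled WT and aged 8 weeks, and adherent peritoneal macrophages kept without serum overnight received IL4 at 10 ng/ml, alone or with emodin at 50 µM. The controls received vehicle, and their levels are given only for orientation. The sample descriptions speak of 6 h of treatment and the protocol of an overnight one, and the design text of the series names peripheral blood cells in place of peritoneal macrophages; neither point was settled here. Whether each array stands for one mouse or a pool is not given, and the p-values reflect only how far these samples varied, which could be partly technical variation.

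IL4 binds a receptor that signals through JAK kinases and the transcription factor STAT6. In macrophages this switches on alternative activation, a state known for arginase, the mannose receptor and secreted lectin-like proteins, and for IRF4, a transcription factor that sustains it. STAT6 signalling is braked by proteins of the SOCS family, which IL4 itself induces. Emodin occurs in rhubarb root and is used in the laboratory as an inhibitor of several protein kinases, casein kinase 2 among them.

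The emodin arrays differed from the IL4 arrays as a whole before any gene was looked at. The 75th percentile of intensity was 487.9 ± 31.4 (SD, n = 4) on the emodin arrays and 776.1 ± 24.5 (SD, n = 4) on the IL4 arrays, while the 7 spike-in probes, for control RNAs usually added in a fixed amount at labelling, averaged 11.16 ± 0.0948 and 10.75 ± 0.226 on the log2 scale. Relative to the spike-ins, the 75th percentile was lower with emodin by 1.085 log2 units on average. Probes well above background made up 48.28% ± 0.963 against 52.27% ± 0.994. Local background was higher with emodin, at 48.5 ± 1.29 against 40.75 ± 0.5. For each of these 5 measures the groups did not overlap (exact permutation test, two-sided, p = 0.0286, the smallest that 4 against 4 arrays allow). All 4 emodin arrays lay on one slide and all 4 IL4 arrays on another, scanned separately, and for every result that follows the effects of slide and of emodin cannot be told apart. The 4 control arrays lay on the slide of the IL4 arrays. Setting emodin arrays against controls therefore crosses the same slides.

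**Figure D1:**
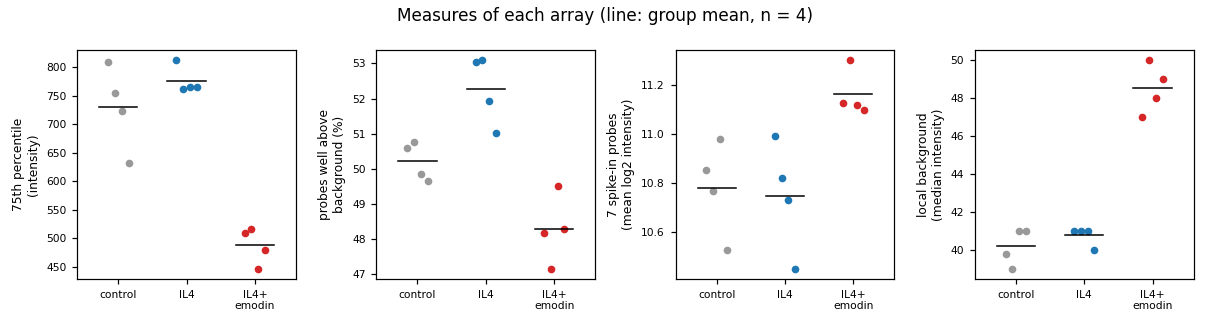
Each point is 1 array and each line a group mean (n = 4); the panels give the 75th percentile of intensity, the percent of probes well above background, the mean log2 intensity of 7 spike-in probes and the median local background. The emodin arrays lie below the IL4 arrays in the first 2 panels and above them in the last 2, with no overlap.

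The labels mark arrays 1 and 2 of each group as female and arrays 3 and 4 as male, and the data go against the second label. None of the 5 probes for the Y-linked genes *Ddx3y*, *Eif2s3y*, *Kdm5d* and *Uty* was well above background on any of the 12 arrays. Both probes for *Xist*, the RNA that silences one X chromosome in female cells, were well above background on all 12. On the IL4 arrays labelled male its level was 0.10 and 0.44, and on those labelled female 0.53 and 0.12. A test of whether the emodin difference depended on the labelled sex called 0 of 20862 genes (limma, smallest adjusted p = 0.888; 507 genes at an unadjusted p under 0.05), and 0 also under the other scalings described next. With 2 arrays per labelled sex and group such a test has little power.

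Because the arrays differed in overall signal, the comparison was made under 3 scalings: each array set to its 75th percentile, quantile normalization, and the spike-in probes. With the 75th percentile, 8212 of 20862 tested genes were higher with emodin (39.4%) and 5538 lower (26.5%) at a limma adjusted p under 0.05. Quantile scaling gave 6134 and 6451, and spike-in scaling 722 and 16834. The median log2 difference of all genes was 0.17, 0.02 and -0.92 in that order, and 4704 genes were called in opposite directions by the first and the last. A gene is said below to have risen or fallen only where it was called in the same direction under all 3 scalings, which held for 722 genes upward (3.46%) and 5469 downward (26.2%). Counts of genes that rose or fell in a list are read against such shares, since the rule passes far more falls than rises. The lists hold named genes only, of which 32.1% fell and 3.27% rose, and these shares are set beside them. A share of falls near 32.1% is thus near that of named genes. Lists were written with earlier results of these data known, so their shares describe the lists and test nothing. Spike-in differences equal the 75th-percentile differences minus 1.085, and the labels do not record how much spike-in was added, so the upward group holds only genes whose rise exceeded that shift. With a different one of the 8 arrays left out each time, 593 of the 722 and 4837 of the 5469 were called alike in every one of the 8 refits.

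**Figure D2:**
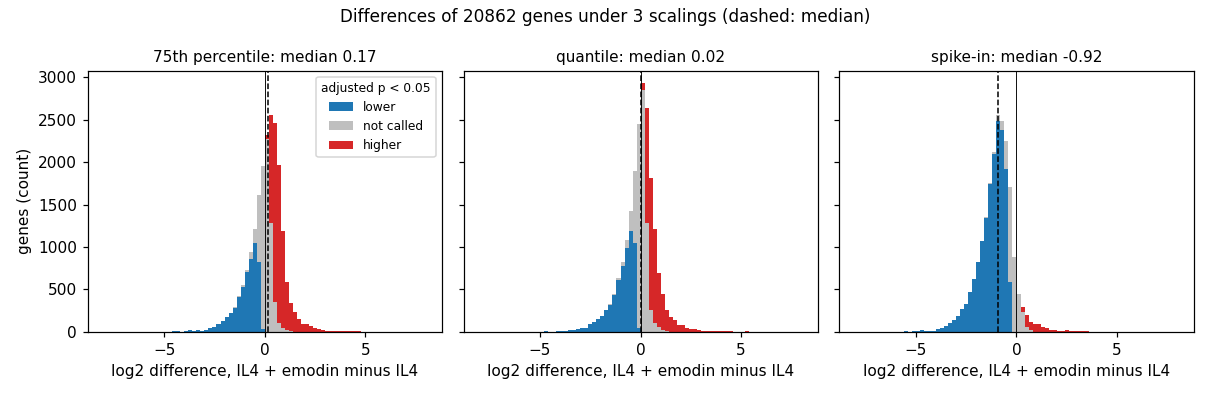
Histograms of the log2 difference, IL4 plus emodin minus IL4, for 20862 genes under each scaling, with genes at an adjusted p under 0.05 coloured by direction and a dashed line at the median. The bulk of genes sits near 0 in the first 2 panels and at -0.92 under spike-in scaling, so that the counts of higher and lower genes depend on the scaling.

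Unless said otherwise, levels are log2 intensity minus the 75th percentile of the array, in the order of arrays 1 to 4, and differences are given on that scale with their standard error (n = 4 per group). A level of one gene is never set against that of another, since probes differ in brightness. Of 13197 named genes tested, 343 rose at least 2-fold, lay above background on all 8 arrays and did not overlap between the groups. Those with such a fall numbered 1164. Lack of overlap alone was common, since 12583 of all 20862 tested genes had it with the 75th percentile.

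The factors that carry the IL4 programme were lower with emodin as a group. Of 20 tested transcription factors and cofactors of the IL4 response, 15 fell (75%, against 32.1% of named genes) and 1 rose (5%, against 3.27%). Their median difference lay 1.07 below that of all genes (1.02 below under quantile scaling). The list was written with earlier results of these data known, so these counts only describe it. *Irf4* had levels of 3.59, 3.44, 3.62 and 3.64 on the IL4 arrays and of -2.83, -2.92, -2.80 and -2.97 on the emodin arrays. Every emodin array was below every IL4 array, and also below every control array, which ranged from -1.71 to -0.80. The difference was -6.45 ± 0.16 (limma adjusted p = 2.18e-10), the deepest fall of any named gene above background on all 8 arrays.

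*Batf3*, a partner of IRF4 on DNA, stood at 5.77, 5.82, 5.60 and 5.72 with IL4 and at 1.95, 1.71, 1.93 and 1.68 with emodin. After its fall of 3.91 ± 0.18 the emodin arrays overlapped the lower control arrays, whose range was 1.70 to 2.74. *Nab2*, which encodes a corepressor of EGR factors, went from 4.29, 4.32, 4.24 and 4.47 to -0.02, -0.04, 0.02 and 0.08. It thus lay far below the control arrays too (3.62 to 4.06), unlike *Batf3*. *Egr2*, a factor that IL4 is known to induce, fell by 2.31 ± 0.13. *Ppargc1b*, a coactivator of mitochondrial genes that alternative activation is known to use, was well above background on all 4 IL4 arrays and on none with emodin, a fall of at least 11-fold. The 1 member that rose was *Rxra*, the partner of many nuclear receptors, by 2.63 ± 0.11.

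The effector genes of alternative activation were lower as well. Of 33 tested enzymes, receptors and secreted proteins of the IL4 response, 24 fell (72.7%, against 32.1% of named genes) and 1 rose (3.03%, against 3.27%). Their median lay 2.08 below that of all genes under both the 75th-percentile and the quantile scaling. This list too was written with earlier results of these data known, so its share of falls is not independent support. *Arg1*, arginase 1, had levels of 6.91, 7.03, 7.35 and 6.97 with IL4 and of 4.31, 4.20, 4.47 and 4.48 with emodin. The groups did not overlap, and the emodin arrays still lay above all control arrays, the highest of which was 0.83. *Mrc1*, the mannose receptor, fell by 0.94 ± 0.23, from 6.20, 6.24, 6.31 and 6.05 to 5.33, 5.44, 5.48 and 4.77, and the control arrays reached 4.70.

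*Retnla*, which encodes the secreted protein RELMα, varied far more between arrays. It stood at 5.27, 5.46, 6.52 and 4.64 with IL4 and at 1.13, 2.12, 4.51 and -0.08 with emodin, a difference of -3.55 ± 1.05 (limma adjusted p = 0.0102). The groups did not overlap but nearly met, and the control arrays ran from 1.13 to 5.74. *Chil3*, the chitinase-like protein Ym1, showed the same spread. It stood at 8.60, 9.31, 9.39 and 9.15 with IL4 and at 6.01, 7.89, 8.96 and 7.52 with emodin, so the groups overlapped. Its difference of -1.52 ± 0.72 did not pass the test at the 75th percentile (limma adjusted p = 0.0803) but did under quantile scaling (-2.08, adjusted p = 0.0207) and spike-in scaling (-2.60, adjusted p = 0.00188), and also when the 2 groups were fitted without the controls (adjusted p = 0.0339).

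The deepest falls among the effectors were in genes that stood higher with IL4 than on the control arrays. *Lipn*, a lipase gene, went from 2.12, 2.56, 2.52 and 2.48 to -3.20, -2.60, -2.74 and -2.38, below all control arrays (-0.30 to 0.23). *Ch25h*, the enzyme that makes 25-hydroxycholesterol, fell by 5.09 ± 0.45 and *Flt1*, a VEGF receptor, by 4.61 ± 0.27; for both, emodin and control arrays overlapped. *Il31ra*, a cytokine receptor subunit, was well above background on every IL4 array and on no emodin array, a fall of at least 14.4-fold. *Pdcd1lg2*, the checkpoint ligand PD-L2, fell by 3.30 ± 0.11, *Mrgprg*, an orphan receptor, by 3.97 ± 0.19, *Rbp4*, a retinol carrier, by 3.84 ± 0.36 and *Tuba8*, a tubulin, by 4.01 ± 0.57. The 1 member that rose was *Mmp13*, a collagenase, at 3.49, 3.44, 3.01 and 3.49 with IL4 and 4.93, 5.55, 4.92 and 6.11 with emodin.

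Receptor, kinase and factor genes of the JAK-STAT pathway fell in 9 of 21 tested cases (42.9%, against 32.1% of named genes) and rose in none. With the 75th percentile alone 5 were higher and 9 lower, with a median of -0.06. *Stat6* itself fell by 1.00 ± 0.08, from 3.71, 3.58, 3.69 and 3.75 to 2.73, 2.52, 2.77 and 2.73, with no overlap. *Il4ra*, the receptor chain for IL4, fell by 1.40 ± 0.16, to levels of -1.12 to -0.58, below all controls (-0.57 to -0.08). *Jak2* fell by 2.00 ± 0.09 to 2.03 to 2.38, below the controls at 2.51 to 2.70. Of 15 feedback inhibitors 7 fell (46.7%, against 32.1% of named genes) and 1 rose (6.67%, against 3.27%). *Socs1* had been at 4.15, 4.34, 4.01 and 4.40 and was at -0.27, -0.19, -0.64 and 0.03 with emodin, close to the controls at -0.71 to -0.54. *Cish*, by contrast, went from 5.19, 5.11, 4.92 and 5.12 to 2.48, 2.26, 2.31 and 2.21, well above the controls, whose highest array was at -3.34. *Socs2* fell by 2.29 ± 0.28. The inhibitor that rose was *Socs3*, by 1.46 ± 0.11. Subunits of casein kinase 2 did not move alike: *Csnk2a1* differed by -0.16 ± 0.07, *Csnk2a2* by 0.39 ± 0.11 and *Csnk2b* by 0.22 ± 0.08, and the last 2 turned to -0.70 and -0.86 under spike-in scaling (*Csnk2b* also to -0.14 under quantile scaling). With all probes of *Csnk2a1* averaged in place of its brightest, its difference was 0.55.

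**Figure D3:**
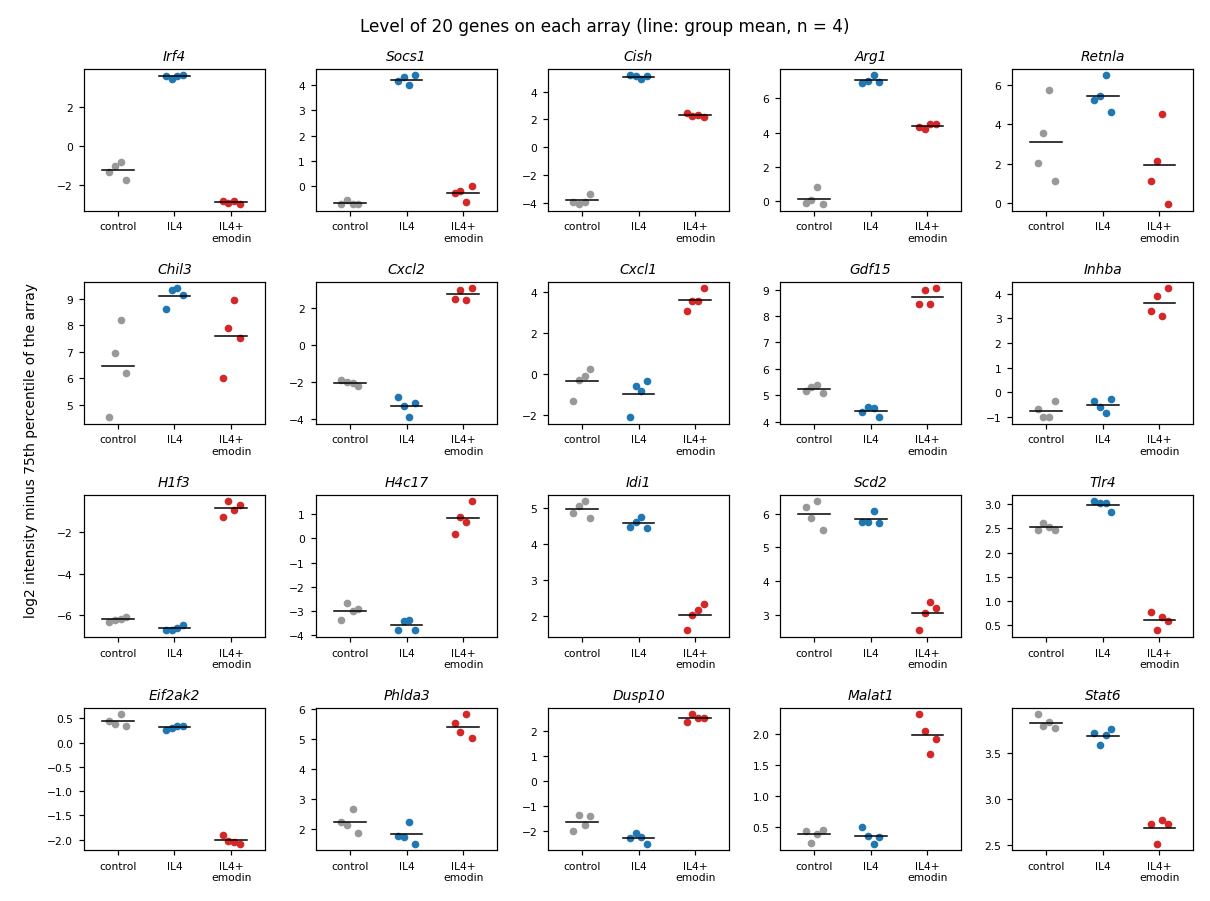
Level of 20 genes on each control, IL4 and emodin array, as log2 intensity minus the 75th percentile of the array, with a line at each group mean (n = 4). *Irf4*, *Socs1*, *Cish*, *Arg1* and *Stat6* are lower on every emodin array than on any IL4 array, *Cxcl2*, *Gdf15* and *H1f3* higher on every one, and *Chil3* overlaps.

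Sequence around the annotated gene starts gives context to these groups. Windows of 250 bases before to 50 after each start were taken from RefSeq for mouse build GRCm38.p6, and 10566 of the 13197 named genes tested had one. A palindrome of the type bound by STAT6, TTC and GAA with 4 bases between them, lay on either strand in the windows of 7 of 22 IL4-response effector genes (31.8%), against 6.80% of all tested genes with a window and 6.95% of all 32851 windows. It lay also in 8 of 36 interferon-stimulated genes (22.2%), in 1 of 14 IL4-response transcription factors (7.14%), in none of 8 feedback inhibitors and in 7.13% of all named genes that fell. Of these 7, *Ccl17*, *Mrgprg*, *Pdcd1lg2*, *Rbp4*, *Retnla* and *Tmem26* fell and *Cd36* did not pass in all 3 scalings. The closer palindrome of other STAT proteins, TTCNNNGAA, lay in 8.59% of tested genes with a window. Among 8 feedback inhibitors with a window it was found in *Cish*, which fell and holds it 2 times, and in *Socs3*, which rose. The windows of *Cish* (chr9:107296409-107296708, plus strand) and *Retnla* (chr16:48842359-48842658, plus strand) are shown because their falls differ in evenness across arrays; capitals mark the palindrome.
Cish: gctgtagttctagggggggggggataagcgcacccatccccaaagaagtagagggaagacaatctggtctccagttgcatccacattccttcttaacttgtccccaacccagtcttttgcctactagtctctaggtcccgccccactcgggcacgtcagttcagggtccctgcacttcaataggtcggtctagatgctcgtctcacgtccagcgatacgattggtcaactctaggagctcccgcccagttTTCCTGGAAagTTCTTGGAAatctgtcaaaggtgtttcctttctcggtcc
Retnla: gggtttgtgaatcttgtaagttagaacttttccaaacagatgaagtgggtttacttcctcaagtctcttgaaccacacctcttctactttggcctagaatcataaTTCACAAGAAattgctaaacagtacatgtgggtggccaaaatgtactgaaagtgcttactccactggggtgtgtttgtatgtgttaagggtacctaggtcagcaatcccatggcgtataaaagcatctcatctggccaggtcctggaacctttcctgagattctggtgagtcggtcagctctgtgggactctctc
A match describes these letters and does not show binding; AP-1 (TGANTCA) and CRE (TGACGTCA) motifs were searched as well, beside those named here and further on.

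Replication-dependent histone genes stood out among the rises. These genes supply histones for newly made DNA, and their mRNA is known to end in a stem-loop in place of a poly(A) tail. Of 41 tested members 24 rose (58.5%, against 3.27% of named genes) and 2 fell (4.88%, against 32.1%). Called with the 75th percentile alone were 37 as higher and 2 as lower. Their median lay 1.78 above that of all genes (1.55 under quantile scaling), and at 1.85 in place of 1.94 on its own when the 5 members measured in only 1 group were set at their bound. *H4c17* had levels of -3.82, -3.41, -3.40 and -3.79 with IL4 and of 0.17, 0.91, 0.70 and 1.54 with emodin, a rise of 4.44 ± 0.25 (limma adjusted p = 3.68e-08). The control arrays lay just above the IL4 arrays, between -3.38 and -2.69. *H1f3*, a linker histone, was not well above background on any IL4 array and stood at -1.28, -0.52, -0.95 and -0.68 with emodin, at least 15.3-fold higher. *H2bc23* was at least 19.9-fold and *H3c11* at least 15.5-fold higher in the same way. The 2 that fell were *H2bc21* (by 1.52 ± 0.10) and *H2ac1* (by 0.48 ± 0.09). Histone genes include near-identical copies, so a probe may read more than 1 of them, and these probes are not independent.

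Of 46 tested genes for DNA replication 15 fell (32.6%, near the 32.1% of named genes) and none rose (against 3.27%). With the 75th percentile alone 10 were higher and 18 lower. Of 35 mitotic genes 12 fell (34.3%, also near 32.1%) and none rose. RefSeq windows of 36 histone genes held CCAAT in 86.1%, against 42.7% of tested genes with a window, and TATAAA in 63.9%, against 9.94%, on either strand. The window of *H1f3* (chr13:23554782-23555081, plus strand) is shown as that of a linker histone detected only with emodin, with both motifs in capitals.
H1f3: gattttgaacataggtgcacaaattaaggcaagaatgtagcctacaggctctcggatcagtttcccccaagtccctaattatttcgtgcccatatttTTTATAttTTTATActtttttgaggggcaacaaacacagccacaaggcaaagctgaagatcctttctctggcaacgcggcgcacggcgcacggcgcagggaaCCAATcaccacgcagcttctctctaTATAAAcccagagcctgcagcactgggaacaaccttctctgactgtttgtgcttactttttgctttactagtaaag
It holds 1 CCAAT and 3 TATAAA, those printed as TTTATA lying on the other strand.

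CXC chemokines are a family known for attracting neutrophils and lymphocytes. Of 10 tested, 5 rose (50%, against 3.27% of named genes) and 1 fell (10%, against 32.1%). *Cxcl2* had levels of -2.79, -3.27, -3.91 and -3.12 with IL4 and of 2.49, 3.00, 2.45 and 3.07 with emodin. Its rise of 6.03 ± 0.22 (limma adjusted p = 1.79e-09) was the largest among named genes above background on all 8 arrays. *Cxcl1* went from -2.10, -0.59, -0.84 and -0.35 to 3.07, 3.56, 3.56 and 4.17. *Cxcl10*, better known as an interferon-induced chemokine, went from -3.30, -2.80, -2.81 and -2.14 to 0.57, 1.22, 1.01 and 2.00, above the controls, which reached 0.18. *Cxcl3*, above background on 1 of 4 IL4 arrays, rose by 3.15 ± 0.43. *Cxcl12* was the member that fell (-1.37 ± 0.51, limma adjusted p = 0.0329). It no longer passed when any of 5 single arrays was left out, IL4 array 2, 3 or 4 or emodin array 1 or 3 (adjusted p = 0.0543 to 0.0984). The same held when its probes were averaged (-1.09, adjusted p = 0.0864). It still passed with IL4 array 1 or emodin array 2 or 4 left out (adjusted p = 0.0129 to 0.0437). It passed too when the 2 groups were fitted without the controls (adjusted p = 0.0258).

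Of 16 tested CC chemokines, which attract monocytes and eosinophils among other cells, 6 fell (37.5%, against 32.1% of named genes) and 1 rose (6.25%, against 3.27%). With the 75th percentile alone 7 were higher and 6 lower, with a median of 0.12. *Ccl2* fell by 2.03 ± 0.47, from 4.12, 4.85, 4.70 and 5.25 to 1.63, 2.91, 2.17 and 4.10, and the emodin arrays overlapped the controls at 2.05 to 3.37. *Ccl7* fell by 2.03 ± 0.46 and *Ccl11*, the eosinophil attractant, by at least 1.97-fold to below background. *Ccl4* rose by 1.81 ± 0.23. Motif letters of the NF-kB type, GGG and TTTCC with 2 bases between them, lay on either strand in the windows of 3 of 8 CXC chemokines, *Cxcl1*, *Cxcl2* and *Cxcl3*, against 2.11% of tested genes with a window. *Cxcl1* (chr5:90890995-90891294, plus strand) and *Cxcl2* (chr5:90903649-90903948, plus strand) each hold 2, in capitals, and are shown as neighbours that rose together.
Cxcl1: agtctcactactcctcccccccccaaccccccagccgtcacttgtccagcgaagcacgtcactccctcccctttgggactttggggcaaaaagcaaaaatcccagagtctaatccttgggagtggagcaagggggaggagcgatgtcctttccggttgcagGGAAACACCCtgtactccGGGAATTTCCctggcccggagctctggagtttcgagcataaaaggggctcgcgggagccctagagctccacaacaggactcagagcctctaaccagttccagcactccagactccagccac
Cxcl2: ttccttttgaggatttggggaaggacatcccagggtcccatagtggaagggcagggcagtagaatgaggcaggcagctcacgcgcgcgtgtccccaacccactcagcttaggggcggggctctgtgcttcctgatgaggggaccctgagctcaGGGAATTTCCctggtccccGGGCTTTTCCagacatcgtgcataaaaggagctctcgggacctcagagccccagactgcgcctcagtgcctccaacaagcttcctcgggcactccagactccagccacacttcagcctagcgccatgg
Of 31 tested NF-kB subunits, kinases and inhibitors, 3 rose (9.68%, against 3.27% of named genes) and 7 fell (22.6%, against 32.1%).

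Of 32 tested cytokines and growth factors 6 rose (18.8%, against 3.27% of named genes) and 6 fell (18.8%, against 32.1%). *Gdf15*, a stress-induced hormone of the TGF-β family, had levels of 4.38, 4.54, 4.53 and 4.16 with IL4 and of 8.44, 8.99, 8.46 and 9.05 with emodin, also above all controls (5.07 to 5.37). *Inhba*, the activin A subunit, went from -0.35, -0.58, -0.85 and -0.26 to 3.29, 3.89, 3.11 and 4.22. *Ifnb1*, interferon beta, was not well above background with IL4 and was at least 3.53-fold higher with emodin, and *Tnfsf14* at least 5.12-fold. *Il1rn*, the antagonist of IL1, rose by 2.17 ± 0.16 and *Vegfa* by 2.07 ± 0.20. *Csf1*, the growth factor of macrophages, fell by 2.50 ± 0.15. *Il6* fell by 2.04 ± 0.56 with 1 of 4 emodin arrays above background, and *Il1b* fell to below background on all 4 with no fold that can be given; after normexp background correction neither passed (-0.27 and 0.06).

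Many genes that sense microbes or answer interferon fell. Of 22 tested Toll-like receptors and adaptors 14 fell (63.6%, against 32.1% of named genes) and none rose. Their median lay 1.21 below that of all genes (1.11 under quantile scaling). *Tlr4*, the receptor for lipopolysaccharide, went from 3.06, 3.03, 3.03 and 2.84 to 0.77, 0.39, 0.66 and 0.59, below the controls at 2.46 to 2.62. *Tlr1* went from 2.27, 2.15, 2.23 and 2.07 to -0.81, -0.75, -0.82 and -0.97. *Tlr8* fell at least 5.89-fold, to below background.

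Of 44 tested interferon-stimulated genes 28 fell (63.6%, against 32.1% of named genes) and 1 rose (2.27%, against 3.27%), although *Ifnb1* and *Cxcl10* rose. *Eif2ak2*, the kinase PKR, had levels of 0.27, 0.30, 0.35 and 0.34 with IL4 and of -1.90, -2.03, -2.04 and -2.08 with emodin. The arrays of each group lay close together, and the difference was -2.33 ± 0.07 (limma adjusted p = 7.22e-10). *Gbp7*, a GTPase of cell defence, fell by 2.99 ± 0.19 and *Cmpk2*, a nucleotide kinase, by 2.96 ± 0.13, each with 3 of 4 emodin arrays above background. The 1 that rose was *Trim25*, a ubiquitin ligase, by 2.11 ± 0.10.

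The factor p53 halts the cycle or starts death after DNA damage and other stress. Of 34 tested genes of its pathway 10 rose (29.4%, against 3.27% of named genes) and 2 fell (5.88%, against 32.1%). Their median lay 0.78 above that of all genes (0.84 under quantile scaling). *Phlda3*, an inhibitor of AKT, had levels of 1.77, 1.74, 2.24 and 1.51 with IL4 and of 5.53, 5.22, 5.82 and 5.03 with emodin. *Mdm2*, the ligase that degrades p53, rose by 1.66 ± 0.08, *Cdkn1a*, the cell cycle inhibitor p21, by 1.60 ± 0.11, and *Ddit4*, an inhibitor of mTOR, by 2.05 ± 0.17. Of the killer proteins, *Bbc3* rose by 1.66 ± 0.11 and *Pmaip1* by 1.77 ± 0.10, but *Bid* fell by 1.31 ± 0.08. Of 18 tested BCL2 family genes 9 fell (50%, against 32.1% of named genes) and 2 rose (11.1%, against 3.27%), *Bbc3* and *Pmaip1*. *Trp53* itself fell by 0.38 ± 0.10. Of 23 caspases and inhibitors of apoptosis 8 fell (34.8%, near the 32.1% of named genes) and none rose. With the 75th percentile alone 7 were higher and 8 lower. *Casp9* went from 5.14, 5.26, 5.19 and 5.10 to 2.78, 2.46, 2.79 and 2.37, and *Casp6* fell by 2.09 ± 0.10.

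Cholesterol synthesis had the largest share of falls among the 71 lists examined. Of 28 tested genes of the pathway and its SREBP regulators 22 fell (78.6%, against 32.1% of named genes) and none rose. The median lay 1.19 below that of all genes (1.11 under quantile scaling). *Idi1*, an isomerase early in the pathway, had levels of 4.47, 4.59, 4.75 and 4.44 with IL4 and of 1.59, 2.02, 2.17 and 2.33 with emodin; the controls lay at 4.72 to 5.17. *Stard4*, a sterol carrier, went from 2.47, 2.34, 2.42 and 2.44 to -0.04, 0.00, 0.15 and 0.39. *Cyp51*, a sterol demethylase, fell by 2.27 ± 0.18 and *Hmgcs1*, a synthase early in the pathway, by 1.71 ± 0.11. *Hmgcs1* was the only 1 of the 20 list members with a window in which the sterol regulatory element letters TCACNCCAC were found on either strand (1.42% of tested genes with a window), while 18 of the 20 held CCAAT (90.0%). Its window (chr13:119690101-119690400, plus strand) is shown with the element in capitals.
Hmgcs1: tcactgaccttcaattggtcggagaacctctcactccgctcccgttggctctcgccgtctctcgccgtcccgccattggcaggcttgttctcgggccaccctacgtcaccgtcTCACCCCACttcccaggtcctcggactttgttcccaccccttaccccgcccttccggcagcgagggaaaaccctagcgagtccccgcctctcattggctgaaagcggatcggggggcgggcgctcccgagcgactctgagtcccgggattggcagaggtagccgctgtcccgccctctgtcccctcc
Of 24 tested genes of fatty acid synthesis 11 fell (45.8%, against 32.1% of named genes) and 1 rose (4.17%, against 3.27%). *Scd2*, a desaturase, went from 5.77, 5.75, 6.09 and 5.73 to 2.53, 3.05, 3.38 and 3.19. *Elovl6*, an elongase, fell by 2.28 ± 0.22, and *Fasn*, fatty acid synthase, at least 4.05-fold to below background.

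**Figure D4:**
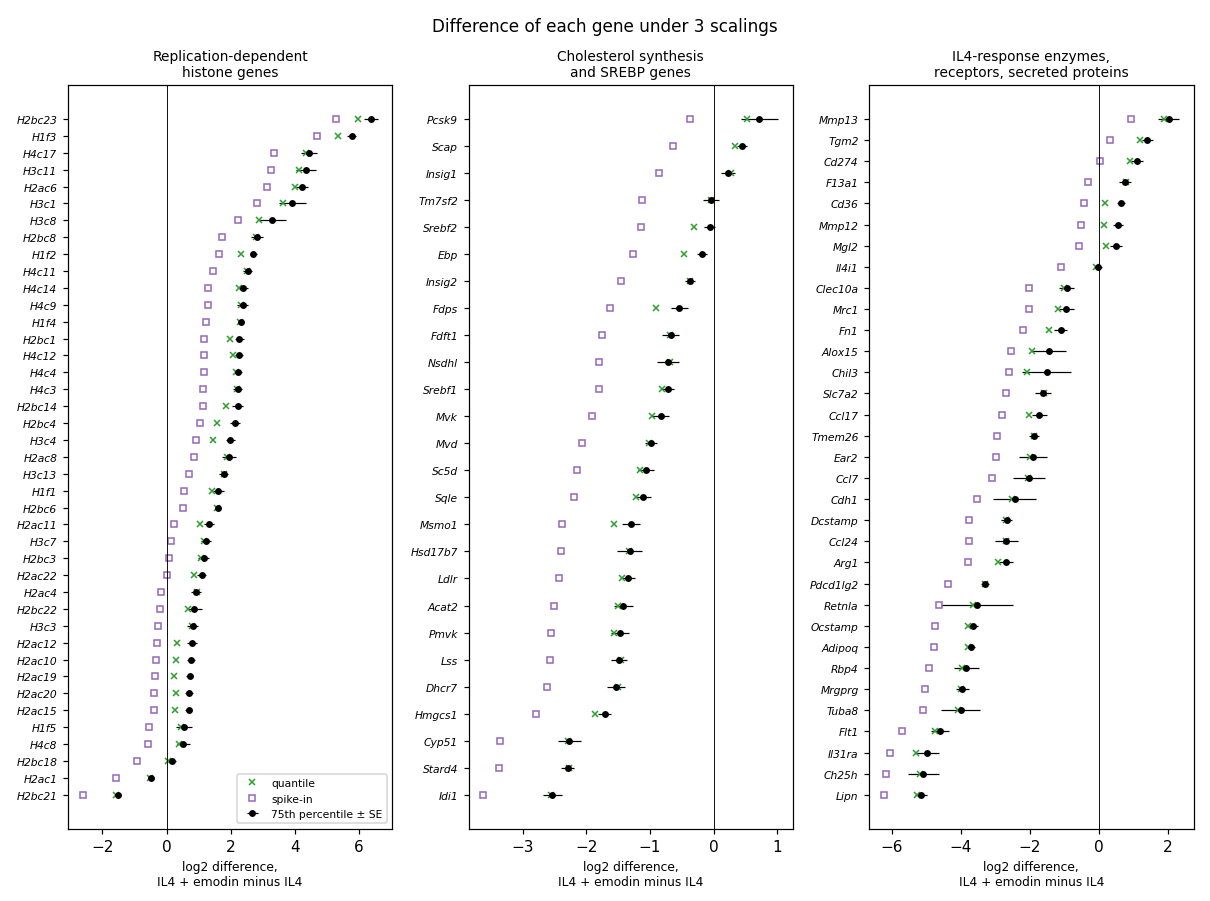
Log2 difference, IL4 plus emodin minus IL4, of tested members of 3 lists: the black point and bar give the 75th-percentile value and its SE (n = 4 per group), the cross the quantile value and the square the spike-in value. The 24 histone genes that rose lie above 0 under every scaling, and the cholesterol genes drawn that fell lie below 0; genes below background in 1 group, such as *H1f3* and *Il31ra*, have only a bound.

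Of 20 tested genes of arginine and polyamine metabolism, 8 fell (40%, against 32.1% of named genes) and 2 rose (10%, against 3.27%). *Arg2*, the mitochondrial arginase, rose by 2.38 ± 0.16 while *Arg1* fell by 2.70 ± 0.20 and *Aldh18a1*, an enzyme of proline and ornithine synthesis, by 1.66 ± 0.12. *Odc1*, the first enzyme of polyamine synthesis, went from 3.02, 3.04, 3.09 and 2.81 to 5.15, 5.35, 5.02 and 5.11. Of 79 oxidative phosphorylation subunits 3 fell (3.8%, against 32.1% of named genes) and none rose. Of 77 cytosolic ribosomal proteins none fell or rose. All but 2 of those ribosomal protein genes were called higher with the 75th percentile (median 0.75), but their median lay only 0.05 above that of all genes under quantile scaling, so no direction holds for them. The same is true of *Actb* (0.38 with the 75th percentile, -0.34 with quantile and -0.70 with spike-in scaling) and *Gapdh* (0.45, -0.27 and -0.63).

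MAP kinase phosphatases switch off ERK, JNK and p38. The list of them also held related phosphatases such as *Dusp18*. Of its 20 tested genes 7 rose (35%, against 3.27% of named genes) and 7 fell (35%, against 32.1%). *Dusp10*, which acts on p38 and JNK, had levels of -2.28, -2.08, -2.22 and -2.50 with IL4 and of 2.37, 2.68, 2.52 and 2.55 with emodin. *Dusp9* rose by 2.82 ± 0.17 and *Dusp8* by 2.62 ± 0.25. *Dusp6*, the feedback phosphatase of ERK, fell by 1.70 ± 0.16 and *Dusp18* by 2.28 ± 0.12, with 2 of 4 emodin arrays above background. The kinase *Map3k20* (ZAK), known for its response to stalled ribosomes, went from -2.31, -2.40, -2.37 and -2.18 to 2.35, 2.34, 2.10 and 2.63. *Gab2*, a signalling adaptor, rose by 4.21 ± 0.16. *Trib1*, a pseudokinase needed for some macrophages, fell by 4.37 ± 0.14 to above background on 1 of 4 emodin arrays. Of 27 immediate early genes 13 fell (48.1%, against 32.1% of named genes) and 1 rose (3.7%, against 3.27%). *Npas4* fell at least 23.7-fold to below background and *Myc* by 0.63 ± 0.15.

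Among 13 nuclear long RNAs and host genes of small nucleolar RNAs 4 rose (30.8%, against 3.27% of named genes) and 5 fell (38.5%, against 32.1%). *Malat1*, which stays in the nucleus, went from 0.50, 0.36, 0.24 and 0.35 to 2.32, 2.06, 1.68 and 1.93. *Snhg15* rose by 2.23 ± 0.09, *Snhg12* by 1.79 ± 0.10 and *Snhg1* by 1.51 ± 0.13. Of 31 P-TEFb and elongation factors 6 fell (19.4%, against 32.1% of named genes) and none rose, while with the 75th percentile alone 10 were higher and 6 lower. *Hexim1*, the inhibitor of P-TEFb, differed by 0.10 ± 0.09 (-0.98 with spike-in scaling). Falls were slightly more frequent among long genes: with named genes divided into 5 equal classes, 26.1% of the class with the shortest span fell and 34.7% of that with the longest, whose median spans were 3.54 and 106 kb. Genes also differed by level, with 42.1% falling in the middle of 5 classes of IL4 level and 19.5% in the lowest.

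**Figure D5:**
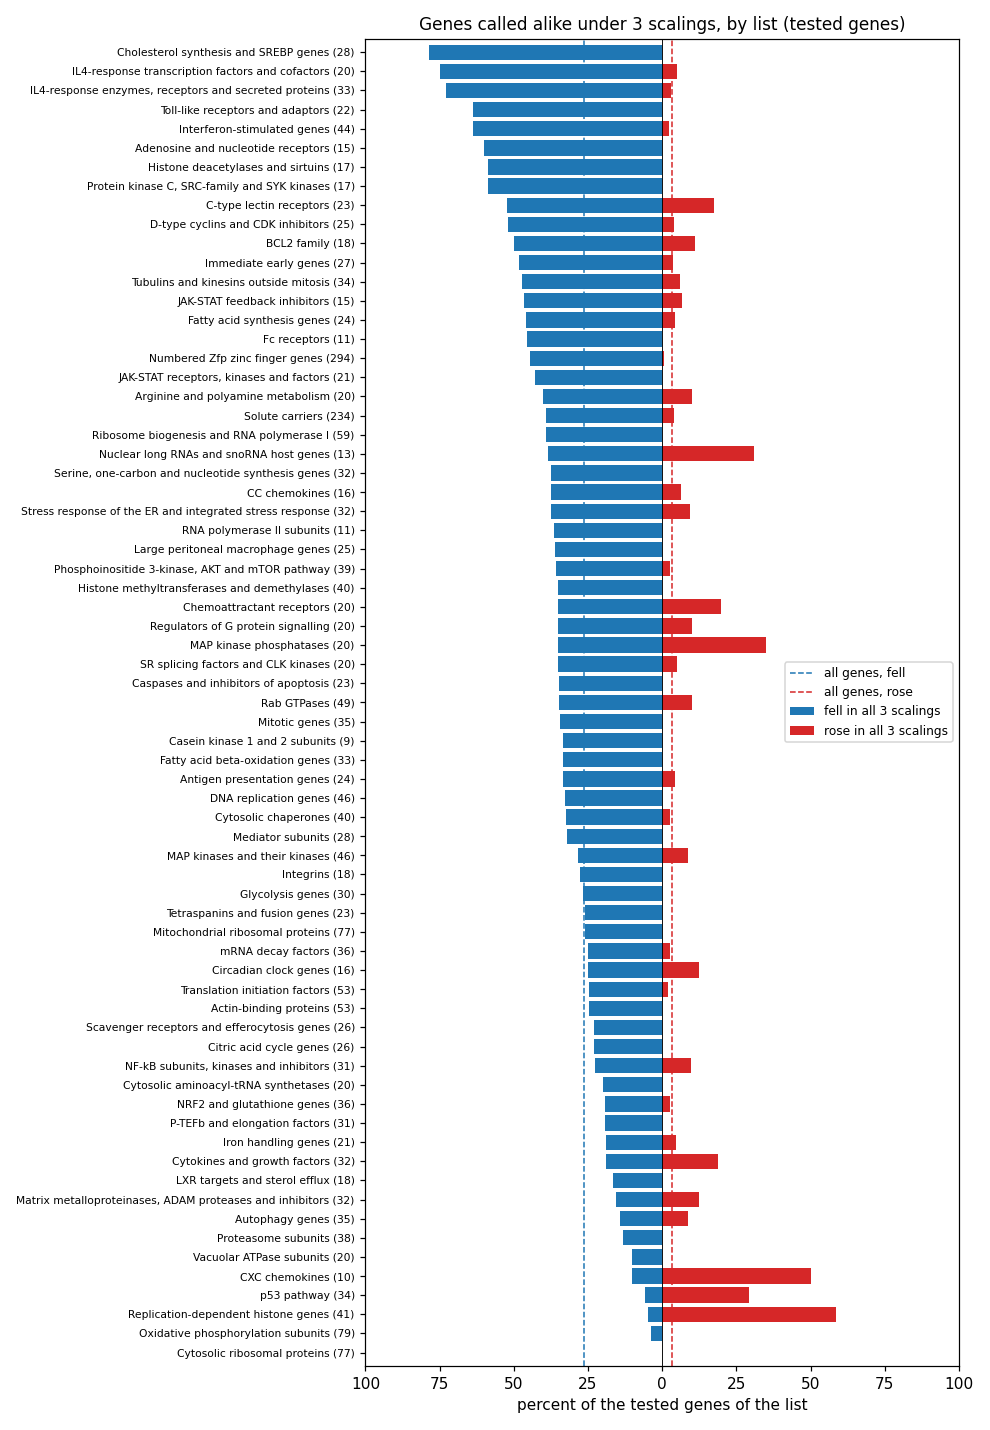
Percent of the tested genes of each of 69 lists that rose (right) or fell (left) in all 3 scalings, with the number tested in brackets and dashed lines at the shares of all genes (3.46% and 26.2%). The lists hold named genes, of which 3.27% rose and 32.1% fell. Histone genes, CXC chemokines, MAP kinase phosphatases, nuclear long RNAs and p53 genes have the longest bars to the right, and cholesterol and IL4-response genes the longest to the left.

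Several genes outside these groups changed as much. *Ankrd33b*, an ankyrin repeat gene, went from -0.10, -0.19, -0.31 and 0.06 to 5.50, 5.82, 5.69 and 6.06. *Rapgef3*, a cAMP-regulated exchange factor, rose by 4.12 ± 0.12, *Psrc1* by 4.07 ± 0.26, *Rassf8* by 3.79 ± 0.14, *Rasd2* by 3.77 ± 0.15 and *H2-Q5*, an MHC class I gene with close paralogs, by 3.77 ± 0.23. *Fam71a* was not well above background with IL4 and was at least 109-fold higher with emodin, the largest such bound. *Tmem184a* was at least 40.5-fold, *Mfsd4b1* 18.7-fold, *Rufy4* 15.5-fold and *Hsh2d* 14.8-fold higher in that way.

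Of the receptors, *Clec4e* (Mincle), which senses mycobacterial and fungal glycolipids, rose by 3.61 ± 0.18 and *Cxcr1* by 3.66 ± 0.24. *Ltb4r1*, for leukotriene B4, fell by 3.38 ± 0.12, *P2ry6*, for UDP, by 3.59 ± 0.13 and *Fcgr1*, for IgG, by 2.89 ± 0.17. Large falls outside the lists included *Sla* (4.24 ± 0.19), *Scimp* (4.02 ± 0.18), *Plekhf1* (3.91 ± 0.21), *Kctd12* (3.83 ± 0.14) and *Galnt9* (3.77 ± 0.16). *Sla* and *Scimp* encode adaptors of immune receptor signalling.

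Macrophage identity was checked with fixed markers. All 9 of 10 markers found on the array were well above background on all 8 arrays, and the sum of their linear levels was 738 to 835 with IL4 and 667 to 791 with emodin. *Adgre1* differed by 0.18 ± 0.08 and *Itgam* by 0.15 ± 0.09 (-0.90 and -0.93 with spike-in scaling), while *Csf1r*, the CSF1 receptor, fell by 0.55 ± 0.12. The sums for B cell markers were 5.65 to 6.36 and 4.91 to 5.69, with 2 of 7 at background on all 8 arrays, for neutrophil markers 7.18 to 10.3 and 5.61 to 8.31, with 1 of 7 at background, and for mast cell markers 1.25 to 3.51 and 1.07 to 2.83. T and NK cell sums were 7.42 to 8.06 and 7.73 to 17.7, with 5 of 8 markers at background on all 8 arrays, *Cd3d*, *Cd3g* and *Cd8a* among them. The T cell markers *Cd3e*, *Cd4* and *Lck* were well above background on all 8. They differed by 1.03, 0.26 and 0.09, and none was called alike in all 3 scalings. Eosinophil sums were 0.649 to 0.999 and 0.863 to 0.949, dendritic cell sums 144 to 281 and 251 to 322, and mesothelial and fibroblast sums 23.9 to 116 and 29.0 to 126. The part of these in the results was not tested. In bulk samples, fewer cells of a type and less RNA per cell cannot be told apart.

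Probes of one gene could disagree. Of 3014 genes with more than 1 probe above background on all 8 arrays, 494 had probes whose differences lay over 1 log2 unit apart, and 295 had probes called in opposite directions. *Rasgrp4*, a RAS exchange factor, had 1 probe at 3.74 ± 0.15 and another at -0.50 ± 0.24 (limma adjusted p = 0.0827). For *Dido1*, 3 probes gave -3.50 ± 0.13, -0.76 ± 0.17 and 0.19 ± 0.13. *Tom1* had a bright probe at -0.27 ± 0.08 and a dim one at 3.34 ± 0.17. Results above use the brightest probe of a gene, and probe sequences were not used here, so transcripts could not be assigned.

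Probes placed in genomic intervals, annotated on mm9 without a gene symbol, also changed; those given here were chosen after their values were seen. An interval on chromosome 17 from 6426800 to 6528950, labelled F, rose by 7.0 ± 0.14 (limma adjusted p = 6.29e-11), more than any named gene above background on all 8 arrays. Intervals on chromosome 15 from 68172597 to 68194740 and from 68170864 to 68171544, both labelled R, rose by 4.15 ± 0.16 and 3.74 ± 0.11. A fall was seen on chromosome 5 from 123582742 to 123588202, labelled F, by 3.36 ± 0.18. Of 2614 such intervals tested, 2.91% rose and 12.6% fell, against 3.27% and 32.1% of named genes.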

How the data were processed

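Total RNA was labelled with Cy3 and read on Agilent mouse arrays, 4 per group. Per the file headers and the submitters' processing notes, the authors used Agilent Feature Extraction 10.7.3.1, whose processed spot intensity is background-subtracted. The deposited values of the series matrix are on a log2 scale; a recomputation showed quantile normalization and centring per probe (correlation 1.00 on every array), and they served as an alternative. Of 55681 probes 27509 matched 1 symbol in RefSeq (build GRCm38.p6). Control and outlier spots were left out, spots of a probe averaged, and a probe was kept if any of the 3 groups had it well above background on each of its 4 arrays (27705 probes), the brightest standing for its gene.

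Group means over 12 arrays came from limma 3.58.1 (R 4.3.3) on log2 intensity minus the 75th percentile of the array, with Benjamini-Hochberg adjustment over 20862 genes and a threshold of 0.05. Where a gene lay below background on all arrays of 1 group, a fold is "at least" the bright mean over the array's background limit. Alternatives were quantile and spike-in scaling, normexp with an offset of 50, filters, probe averaging, blocks and each array left out. A self-test used simulated arrays with independent noise and no slide effect, so it does not bear on the slide. It recovered 62.7% of 1.5-fold, 77.6% of 2-fold and 95.5% of 4-fold changes, with 6 false calls. Figures used Python 3.11.15 and matplotlib 3.10.9. The number of arrays limits precision. The genes, lists and rules were chosen with earlier results of these data known. Named genes included the 15 largest rises and falls called alike, above background on all 8 arrays and not overlapping between the groups. The others were the 8 largest bounds each way, up to 4 of each list, 20 fixed genes and genes with disagreeing probes. The text gives a subset of all these. Other list members given to account for small counts or as pathway examples were chosen after their values were seen. Some results are not reported here.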

Additional observations from a re-analysis of the deposited data

Results flagged for a closer look

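In 282 groups of 4 arrays, taken over the genes named in the text and the array measures, 15 had 1 array far from the other 3 relative to the group's range; chance alone would mark about 1 in 20.

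On the IL4 arrays, *Flt1* was high on array 3 (1.55, others 1.29 to 1.33), *Mmp13* low on array 3 (3.01, others 3.44 to 3.49), *Scd2* high on array 3 (6.09, others 5.73 to 5.77), *Tlr4* low on array 4 (2.84, others 3.03 to 3.06) and *Psrc1* low on array 4 (-0.74, others 0.23 to 0.41). The 75th percentile of intensity was high on IL4 array 1 (812.8, others 761 to 766), and its local background was 40 on array 4 against 41 on the others.

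On the emodin arrays, *Trim25* (7.68, others 7.89 to 7.90) was low on array 3, and *Fasn* (-4.03, others -6.03 to -5.85) and *Plekhf1* (-0.99, others -1.61 to -1.55) were high on it. *Stat6* was low on array 2 (2.52, others 2.73 to 2.77), *Sla* low (-2.72, others -1.90 to -1.74) and *Fam71a* high (2.35, others 1.82 to 1.88) on array 1, and *Elovl6* high on array 4 (-1.07, others -1.89 to -1.78). Spike-in probes were brightest on array 2 (11.3, others 11.1 to 11.13). In each of the named genes the direction between the groups was the same with any 1 array left out.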

How the results depend on the processing

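The scaling moved the results most. Spike-in scaling gave 722 genes higher and 16834 lower (346 and 9445 of them at least 2-fold), against 8212 and 5538 (1768 and 2060) with the 75th percentile, and a median difference of -0.92. The median was 0.17 with the 75th percentile, 0.02 with quantile scaling, with normexp and quantile scaling and in the deposited value table, 0.20 with normexp and the 75th percentile, 0.19 with probes above background on all 12 arrays, and 0.49 without a filter on dim probes. Without that filter 17155 genes were higher, 4738 of them at least 2-fold. Normexp left 1161 genes at least 2-fold higher and 1291 lower with the 75th percentile, and 910 higher with quantile scaling. *Actb* turned to -0.34 with quantile scaling and in the deposited table, -0.70 with spike-ins and -0.38 with normexp and quantile; *Gapdh* to -0.27, -0.63 and -0.25 in the same order; *Csnk2b* to -0.14 (-0.15 in the deposited table), -0.86 and -0.21. *Adgre1* turned to -0.90 with spike-ins and -0.02 with normexp and quantile, *Itgam* to -0.93, *Csnk2a2* to -0.70 and *Hexim1* to -0.98 with spike-ins, *Il1b* to 0.06 with normexp and *Csnk2a1* to 0.55 with the mean of its probes. The cause was not tested beyond these settings. With each array left out, 7627 to 8013 genes were higher, 5189 to 5475 lower, 1690 to 1859 and 2012 to 2134 at least 2-fold, 644 to 803 rose and 5122 to 5410 fell in all 3 scalings, and the median was 0.16 to 0.17. With the replicate number as a block, 9004 genes were higher and 6092 lower, and 796 rose and 6027 fell in all 3 scalings. After removal of group means, same-numbered IL4 and emodin arrays correlated at 0.44, 0.09, 0.31 and 0.40. Arrays of different number correlated at -0.34 to 0.09. Because 1 same-number value lay under 0.1, a fixed rule left the pairing out of the main fit. The numbers may still pair the arrays, and same-numbered arrays also shared the array column on the slide. *Chil3* passed with the block (limma adjusted p = 0.00522), as did *Cxcl12* (adjusted p = 9.93e-06). The slide as a block could not be fitted, since each group lay on 1 slide. Dim probes limit the bounds given for genes below background.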

Other observations

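Other gene groups are read against the 32.1% of named genes that fell and the 3.27% that rose (26.2% and 3.46% of all genes). Of 294 numbered zinc finger genes 131 fell (44.6%) and 2 rose (0.68%). Of 17 histone deacetylases and sirtuins 10 fell (58.8%) and none rose; *Hdac1* fell by 1.28. Receptors for adenosine and nucleotides fell in 9 of 15 cases (60%) and rose in none, among them *P2rx5* (-2.90, above background on 1 of 4 emodin arrays), *Adora3* (-2.64) and *Adora2b* (-2.06), the last 2 being adenosine receptors.

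Of 16 clock genes 2 rose, *Nr1d1* by 2.35 and *Rora* by 1.63, and 4 fell (25%). Among 234 solute carriers 92 fell (39.3%) and 9 rose (3.85%), with *Slc19a2*, a thiamine transporter, higher by 3.05 and *Slc25a2* detected only with emodin, at least 13.4-fold higher. In the stress response of the endoplasmic reticulum 12 of 32 genes fell (37.5%) and 3 rose (9.38%); *Pdia4* fell by 2.08 and *Xbp1* by 1.41. Of 40 cytosolic chaperones 13 fell (32.5%) and 1 rose, the heat shock gene *Hspa1a*, by 2.23; *Bag2*, above background on 3 of 4 emodin arrays, fell by 2.15.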
